A study of Drosophila melanogaster with 4 samples.

Results

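The regions described here are the stretches of the Drosophila melanogaster X chromosome that the authors called enriched for histone H3 dimethylated at lysine 79 (H3K79me2). They were taken from the authors' list for the replicate set, as every enriched region on X of FlyBase release 5 that ended before the last assembled 2 Mb at the centromere end. The rule gave 872 regions of the 5314 in the whole list, from 20.4 Mb of X. The last region inside the limit ran from 20393888 to 20396858 with a score of 2.81, and the first outside it from 20565118 to 20568218 with a score of 0.55.

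The material was formaldehyde-crosslinked embryos from population cages, staged at 14 to 16 h per the labels, of the wild-type strain Oregon-R, which the labels also name Oregon-R-modENCODE. All groups share that strain, genotype and stage. There were 2 samples immunoprecipitated (ChIP) with the anti-H3K79me2 antibody Abcam ab3594 lot 1, and 2 input samples, which are chromatin without that step. Each ChIP sample has its own list of regions, while no list of the input samples is used here. Whole embryos mix all cell types, so a region shared by all cells and one marked in a few of them cannot be told apart, and the labels do not give the sex of the embryos or say whether the replicates were separate collections. The SDs below therefore measure the spread between these samples, which may be technical. Sequencing depth is unknown, since the lists hold no counts.

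Methylation of H3 lysine 79 lies on the globular core of the nucleosome rather than on a histone tail. In flies the Dot1 enzyme that writes it is called grappa. The mark is known from actively transcribed genes, most of all from the part just downstream of the promoter. X has a transcription regime of its own in flies: in males the MSL complex binds active genes along the single X and raises their output, which involves acetylation of histone H4 at lysine 16, while in females both copies work without it. The lists give positions only, and no release 5 gene annotation was used here, so the regions are named by coordinates and not by gene. The score is the authors' value for each region and has no stated unit, so scores are compared by rank and difference only.

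H3K79me2 on X formed many short domains separated by longer unmarked sequence. The 872 regions of the replicate set covered 3.32 Mb, which was 16.3% of the stretch. On the same stretch, replicate 2 listed 855 regions covering 16.6% and replicate 1 listed 847 covering 14.1%, a mean of 15.3% ± 1.79 (SD, n = 2). The replicates thus listed nearly equal numbers of regions but different lengths.

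A typical domain was a few kilobases long. The median width was 3240 bp in the replicate set, with quartiles of 2562 and 4513 bp, and the regions ranged from 1003 to 17021 bp. Replicate 2 had a median of 3268 bp and replicate 1 one of 2881 bp (mean 3074.5 bp ± 274, SD, n = 2). The replicate set had 175 regions of at least 5 kb, while replicate 2 had 200 and replicate 1 had 104. They made up 20.1%, 23.4% and 12.3% of the X regions, against 16.2%, 19% and 10.6% of all regions in the same lists. Broad domains were listed more often in replicate 2 than in replicate 1.

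Scores on X ran from 0.08 to 3.55 in the replicate set, with a median of 2.05 and quartiles of 0.98 and 2.68. The median was 1.99 in replicate 2 and 2.26 in replicate 1. Of the 872 regions, 220 scored under 1, 202 from 1 to under 2, 366 from 2 to under 3, and 84 scored 3 or more (9.63%, against 6.64% of the whole list). Scores under 1 made up 25.2% on X, against 31.8%, 29.4% and 30.0% on the autosomal arms 2L, 3L and 3R without their centromere ends. The classes between were not counted beyond X. Most of the marked length belonged to the stronger regions: those scoring under 1 made up 14.8% of it and those scoring from 2 to under 3 made up 51.8%. Median width was 2131 bp below a score of 1, 3127 bp from 1 to under 2, 4052 bp from 2 to under 3 and 4344 bp at 3 or more. Wider regions thus tended to score higher, with a Spearman's rho across regions, which are not independent replicates, of 0.70 in replicate 2 and 0.73 in replicate 1.

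**Figure D1:**
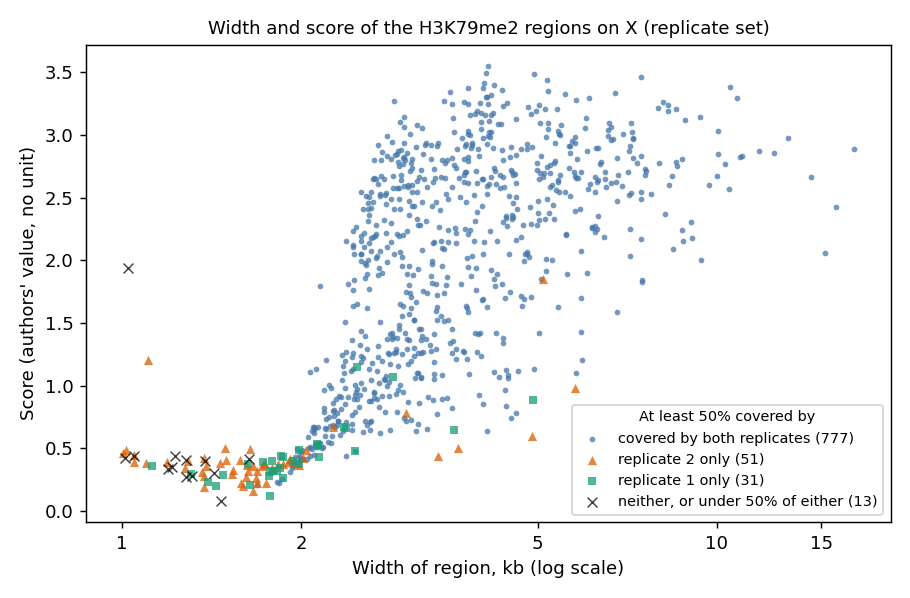
Width (kb, log scale) against score (no unit) for each of the 872 X regions of the replicate set, marked by which replicate lists cover at least 50% of it. Regions covered by both replicates (777, or 89.1%, against 87.5% of the whole list) reach a width of 17021 bp and a score of 3.55, whereas those covered by 1 replicate or by neither lie mostly at narrow widths and low scores.

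The 10 widest X domains that both replicates covered by at least 50% measured 10813 to 17021 bp. They were spread over the length of the arm, and their scores of 2.06 to 3.29 lay below the highest scores on X. The widest, X:508838-525858, scored 2.88 in replicate 2 and 2.93 in replicate 1. Each listed it as 1 region, of 17184 bp in replicate 2 and 16286 bp in replicate 1. Next came X:1962156-1978050, of 15.9 kb and score 2.42. Replicate 2 listed this domain as 1 region of 17.5 kb, and replicate 1 as 2 regions of 7.88 and 4.48 kb. Near the middle of the arm X:11462116-11476518 (14.4 kb) and X:11480442-11495678 (15.2 kb) were separated by 3923 bp. The left one scored 2.59 in replicate 2 and 2.77 in replicate 1, and the right one 2.29 in replicate 2 and 1.86 in replicate 1, so the order of the replicates was opposite in these neighbours. X:9047086-9060278 was 13.2 kb wide and scored 2.76 in replicate 2 and 3.15 in replicate 1. The tenth, X:7822858-7833670 (10.8 kb), was the only one of the 10 that scored above 3 in the replicate set, at 3.29.

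The lists differed over narrow regions by their absence and over some wide ones by their division. Of the 872 regions, 738 matched exactly 1 region in each replicate, with a median width of 3350 bp. A further 48 were matched by replicate 2 alone, 30 by replicate 1 alone and 12 by no replicate, and these were narrow, with median widths of 1619, 1847 and 1253 bp. The other 44 matched 2 or more regions in at least 1 replicate. Replicate 2 held 15 of these in pieces, replicate 1 held 32, and 3 were in pieces in both. The 29 regions with 2 pieces in replicate 1 and 1 in replicate 2 had a median width of 7491 bp. The widest region in pieces in replicate 2 was X:15778136-15789088, listed there as regions of 3.53 and 7.59 kb. Replicate 2 also joined what the replicate set kept apart: it spanned 20 pairs of neighbouring X regions with 1 region, and replicate 1 spanned none. Apart from regions in neither replicate (1.83% of the whole list), these counts were not made beyond X. They are therefore not shown to be particular to X.

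The highest-scoring X domains were narrower than the widest. The top 10 that both replicates covered scored 3.37 to 3.55 and measured 3811 to 10515 bp, so each was narrower than the tenth widest. The highest, X:6187360-6191482, scored 3.44 in replicate 2 and 3.75 in replicate 1, and lay 281 bp from its nearest neighbour. X:2501272-2505364 followed with 3.23 in replicate 2 and 3.71 in replicate 1. X:19371704-19376626 was the only one of the 10 that scored higher in replicate 2, at 3.535 against 3.503 in replicate 1. The largest gap between replicates among them was at X:4432802-4436862, with 2.93 in replicate 2 and 3.87 in replicate 1, the highest score of any X region in replicate 1. One domain was both wide and strong: X:1765864-1776378 measured 10515 bp and scored 3.38, with 3.22 in replicate 2 and 3.52 in replicate 1.

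Most X domains were found in both replicates, as was the rest of the list. Both replicates covered at least 50% of 777 regions (89.1%, 95% Wilson interval 86.9% to 91.0%, counting error only), against 87.5% of all regions in the list. Replicate 2 alone covered 51 and replicate 1 alone covered 31, with median scores of 0.38 and 0.39. A further 12 touched neither replicate list (1.38%, against 1.83% of the whole list), and 1 was touched but covered under 50%. By score, both replicates covered 130 of 220 regions under 1, 197 of 202 from 1 to under 2, and all 366 and 84 in the 2 higher classes. Since the list for the replicate set was made from the same samples, this overlap is a description and not independent support.

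The regions that touched neither replicate were narrow, from 1011 to 1635 bp, and 8 of them were below 1311 bp, the narrowest region of either replicate on X. The strongest of them stood apart: X:2510502-2511526 was 1025 bp wide with a score of 1.94, and the next highest scored 0.44. It lay 483 bp from its nearest neighbour. The region nearest to the telomere end, chosen after its values were seen, was X:9344-10624 with a score of 0.41. It also touched neither list, whereas the next, X:11212-13364, scored 1.92 in replicate 2 and 1.70 in replicate 1. Of the marked length on X, 82.5% was common to the replicates. A further 12.9% came from replicate 2 alone and 3.67% from replicate 1 alone, and 0.91% was in no replicate list. The replicates shared 80.7% of the length marked in replicate 2 and 95.3% of that in replicate 1. By region, 769 of 855 in replicate 2 were covered at least 50% by replicate 1 (89.9%, against 90.6% in the whole list), and 811 of 847 in replicate 1 by replicate 2 (95.7%, against 94.7%). The 77 regions of replicate 2 and 33 of replicate 1 without a partner were weak, with median scores of 0.59 and 0.61.

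Replicate 2 drew X domains wider, and scored strong ones lower, than replicate 1. On X, 711 regions could be paired one to one between the replicates. Replicate 2 was wider in 619 of them (87.1%, against 84.7% of the pairs on all sequences), by a median of 419 bp with quartiles of 159 and 754 bp. The extension was about equal on both sides, with a median of 183 bp at the lower coordinate and 194 bp at the higher one. Scores were lower in replicate 2 in 455 pairs (64.0%, against 66.4% on all sequences), with a median difference, replicate 2 minus replicate 1, of -0.18. This difference changed along the score: it was 0.11 in the 113 pairs with a mean score under 1, -0.00427 in the 195 from 1 to under 2, -0.33 in the 326 from 2 to under 3 and -0.47 in the 77 at 3 or more. Pairs were ranked alike in both replicates, with a Spearman correlation of 0.86 for scores and 0.90 for widths across pairs, which share their libraries.

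**Figure D2:**
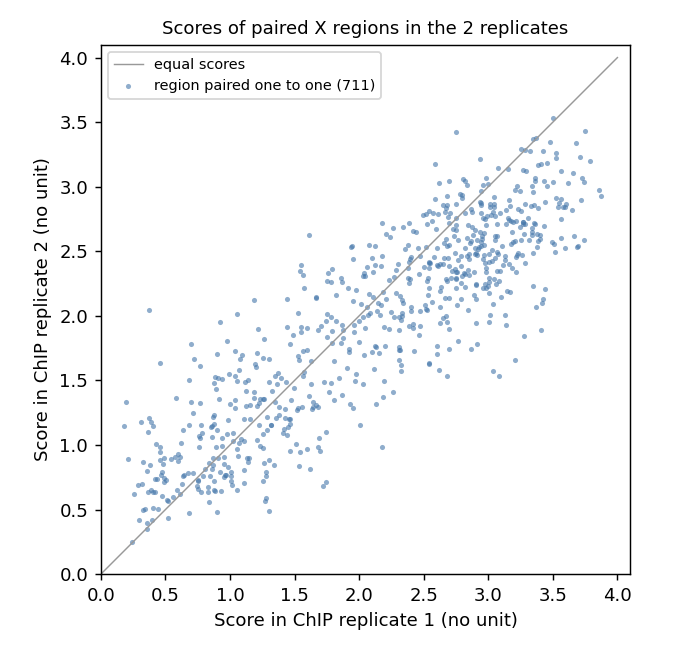
Score in replicate 2 (vertical axis) against score in replicate 1 (horizontal axis) for the 711 X regions paired one to one, with the line of equal scores. Points at high scores lie mostly below the line, and the median difference of all pairs, replicate 2 minus replicate 1, is -0.18.

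Single domains departed much more than that. The largest drop was at a pair listed as X:2527564-2532049 in replicate 2, with a score of 1.66, and as X:2527025-2530118 in replicate 1, with 3.21. Of the 5 largest drops, 3 lay in the Mb that began at 15000001, and there the region X:15741469-15744034 scored 1.57 in replicate 2 against 3.03 for its partner in replicate 1. That Mb as a whole did not drop more: its 46 pairs had a median difference of -0.16, against -0.18 for all X pairs. The largest gain was at X:19654634-19657281 in replicate 2, which scored 2.05 there and 0.37 in replicate 1, with widths of 2648 and 1645 bp. It was followed by X:18668433-18671374, with 1.64 in replicate 2 and 0.46 in replicate 1. All 5 of the largest gains were wider in replicate 2, while 2 of the 5 largest drops were. The width difference was above 0 and the score difference below 0 in the median of each of the 20 whole 1-Mb bins of X, where the median widening ran from 296 to 670.5 bp and the median score difference from -0.38 to -0.00247.

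Along the arm the covered share varied less between large parts than between small bins. Averaging over longer windows narrows the range by itself, so this contrast says nothing about how the regions were arranged. In 5 equal parts of the stretch, each of 4.08 Mb, the covered share from the telomere end to the centromere end was 15.5% ± 2.23, 14.7% ± 1.86, 15.0% ± 1.47, 16.3% ± 1.44 and 15.2% ± 1.93 (SD, n = 2 each). The ranges of the replicates overlapped between all 5 parts, but replicate 2 was higher in each part, so this overlap says little. Within each replicate, part 4 was covered most, with 17.3% in replicate 2 and 15.2% in replicate 1. The lowest parts were covered to 16.1% and 13.4%. In 1-Mb bins the mean covered share ran from 8.52% to 23.0% with a median of 15.5%, and all 20 bins were covered more in replicate 2.

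The most densely marked Mb began at 15000001, with 60 regions covering 24.2% in replicate 2 and 21.9% in replicate 1 (mean 23.0% ± 1.57, SD, n = 2). Next were the bins from 11000001 (21.4% ± 1.91) and 16000001 (20.5% ± 1.98). The bin from 11000001 had only 44 regions, but their median width was 4020 bp, and it holds the pair of wide neighbours described above. The sparsest Mb began at 12000001, directly after it, with 24 regions covering 9.02% in replicate 2 and 8.01% in replicate 1 (mean 8.52% ± 0.71). The bins from 14000001 (9.49% ± 1.04) and 3000001 (9.74% ± 2.01) were the next lowest, and the bin from 14000001 had the lowest median score of the 20, 1.25 in replicate 2 and 1.36 in replicate 1. Dense and sparse bins stood next to each other, as at 11 to 13 Mb and at 14 to 16 Mb, and in these bins the ranges of the replicates did not overlap.

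**Figure D3:**
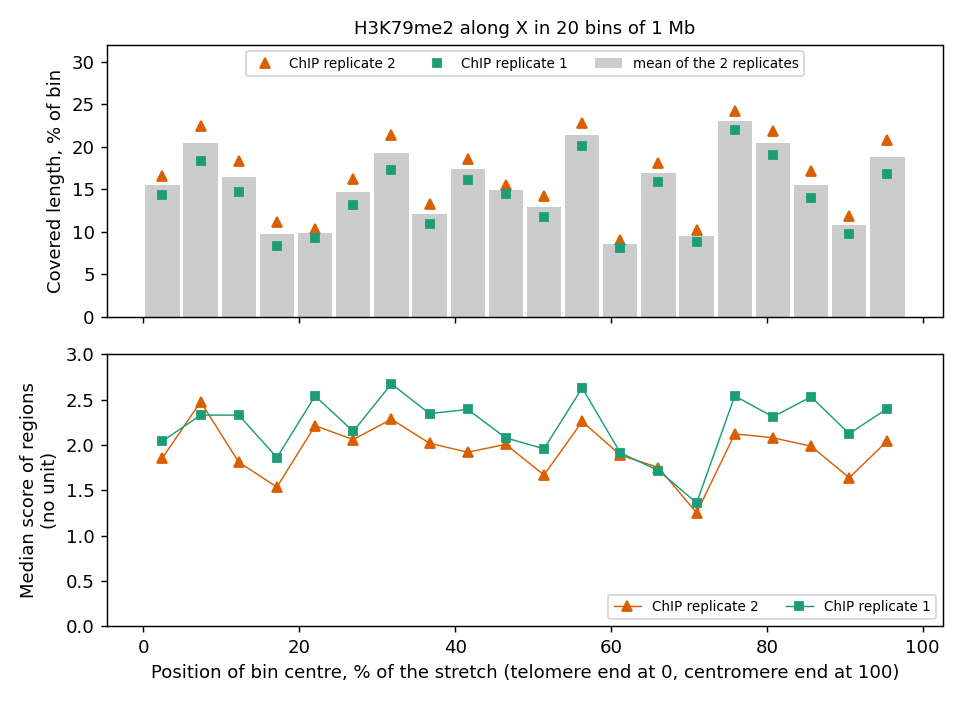
Covered length (upper panel, % of bin) and median score of the regions (lower panel, no unit) in 20 bins of 1 Mb against position along the stretch in % of its length, from the telomere end at 0. Bars give the mean of both replicates, which runs from 8.52% to 23.0%; replicate 2 lies above replicate 1 in all 20 bins of the upper panel.

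Across the bins, covered share followed the number of regions (Spearman's rho 0.85 over 20 bins) more closely than their median score (0.54) or median width (0.23). These are bins of the same libraries, and covered share is built from number and width. The number of regions per bin ran from 23 to 60 and the median width from 2823 to 4350 bp. The bin from 4000001 shows how they can part, and was chosen after its values were seen: it had the fewest regions, 23, with a median width of 4033 bp and median scores of 2.21 in replicate 2 and 2.54 in replicate 1. The bin before it, from 3000001, reached almost the same covered share with 37 regions of a median 2823 bp and median scores of 1.54 in replicate 2 and 1.86 in replicate 1. The replicates ordered the bins alike, with a rho of 0.98.

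Domains on X often stood close together, as they did on the autosomal arms. The median distance from one region to the next measured 6734 bp in the list of replicate 2 and 7533.5 bp in that of replicate 1 (mean 7134 bp ± 565, SD, n = 2). The shortest was 13 bp in the replicate set and the longest 267 kb. Of the distances, 41.6% were under 5 kb in replicate 2 and 38.9% were in replicate 1. On the arms 2L, 3L and 3R, each without 2 Mb at its centromere end, the shares were similar. They were 43.4%, 39.4% and 42.7% in replicate 2 and 42.9%, 38.4% and 40.7% in replicate 1. In the replicate set 101 of the 871 distances on X (11.6%) were under 1 kb, against 12.3%, 12.4% and 13.6% on those arms. Chaining neighbours less than 5 kb apart put 556 regions (63.8%) into 207 runs and left 316 alone. Of the runs, 122 held 2 regions, 51 held 3 and 34 held 4 or more.

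The longest run was X:16164036-16231698, in which 10 regions covered 70.0% of 67.7 kb. Replicate 2 listed 10 regions over the same span, covering 71.6%, and replicate 1 listed 11, covering 63.1%. Both replicates covered all 10 regions, and 8 of them scored 2 or more in the replicate set. The run opened with regions of 3.04 and 7.46 kb scoring 2.47 and 2.49, and its highest score was 3.26 at X:16188848-16192846. Next to it lay a weak pair, X:16197162-16199264 and X:16200440-16203216. The first of these scored 1.15 in replicate 2 and 0.18 in replicate 1, the lowest score of any X region in replicate 1, and the second 1.32 in replicate 2 and 1.00 in replicate 1. The last 4 regions scored 2.07 to 2.68, and the one at the end, X:16222912-16231698, was the widest of the run at 8.79 kb. A weak pair thus stood between stronger domains.

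The next longest runs had 6 regions each. X:1263134-1288834 was the most tightly packed, with 79.6% of 25.7 kb covered; replicate 2 covered 85.7% and replicate 1 covered 59.6%. X:6860918-6897256 spanned 36.3 kb with 53.5% covered, and X:368904-395764 spanned 26.9 kb with 61.6% covered. X:368904-395764 was weaker, with a median score of 1.41 and 2 of its 6 regions at a score of 2 or more. Replicates 2 and 1 each listed 5 regions in it. Its second region, X:375062-376440 with a score of 0.40, touched neither replicate list. Without that region the first would lie more than 5 kb from the next in each list, so neither replicate has this run whole. At least 4 runs held 5 regions; the one nearest to the telomere end, X:1926224-1947524, was 21.3 kb long with 58.7% covered and a median score of 0.94, and replicates 2 and 1 each listed 3 regions in it.

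Regions with a close neighbour scored higher than isolated ones. In replicate 2 the median score was 2.22 for 564 regions with a neighbour within 5 kb, 1.71 for 222 with the nearest at 5 to under 20 kb, and 1.31 for 69 with none within 20 kb. Replicate 1 gave 2.55 (528 regions), 1.75 (241) and 1.31 (78). The share of regions scoring 2 or more in these classes was 57.8%, 38.3% and 21.7% in replicate 2 and 67.2%, 44.8% and 24.4% in replicate 1. Isolated domains were also somewhat narrower, with median widths of 2907 bp against 3388 bp for close ones in replicate 2 and 2650 bp against 3080 bp in replicate 1. Across regions, Spearman's rho between the distance to the nearest neighbour and the score was -0.25 in replicate 2 and -0.24 in replicate 1. The other arms showed differences of the same sign: the median score of isolated minus close regions was -0.90 on X, -0.83 on 2L, -0.58 on 3L and -0.89 on 3R in replicate 2, and -1.24, -1.24, -1.02 and -1.21 in replicate 1. Neighbouring regions on X resembled each other little in score, with a rho of 0.16 in replicate 2 and 0.18 in replicate 1.

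**Figure D4:**
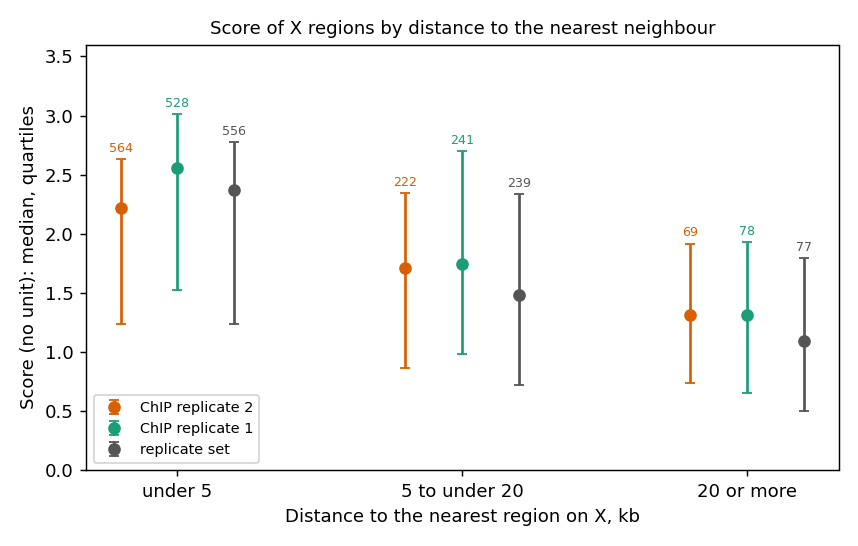
Median score (points) with lower and upper quartiles (bars) of X regions by distance to the nearest other region, for replicate 2, replicate 1 and the replicate set, with the number of regions above each bar. The median falls with distance in all 3 lists, to 1.31 in both replicates at 20 kb or more.

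A few domains stood far from any other. X:12097040-12100622 was 173077 bp from its nearest neighbour and scored 1.47 in replicate 2 and 1.63 in replicate 1. X:13889504-13892472, 148949 bp from the next, was stronger, at 1.70 in replicate 2 and 2.60 in replicate 1. X:14370318-14374782 was 98939 bp away and scored 1.117 in replicate 2 and 1.28 in replicate 1, and X:5410428-5413802 was 85967 bp away and scored 1.963 in replicate 2 and 1.74 in replicate 1. Both replicates covered these 4 regions. The fifth, X:19955614-19956734, was 95073 bp away and was listed in replicate 1 only, with a score of 0.45.

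Long stretches of X had no region in any of the 3 lists. There were 32 of more than 100 kb, which made up 4.70 Mb or 23.0% of the stretch. By the same measure there were 38 on 2L (27.3%), 35 on 3L (21.6%) and 41 on 3R (22.1%). The longest on X was X:7235512-7501660 (266 kb), followed by X:12100802-12325744 (225 kb), X:4983125-5201308 (218 kb), X:13892528-14093293 (200.8 kb) and X:4603199-4802213 (199 kb). Both strong and weak domains stood at their borders. The stretch from 4983125 lay between regions of 8.40 kb scoring 2.67 and of 3.79 kb scoring 2.93. The one from 13892528 lay between regions scoring 2.21 and 2.89. Border scores were 2.34 and 1.20 for the one from 7235512, and 1.45 and 0.40 for the one from 12100802. For the one from 4603199 they were 0.30 and 2.27. At 2 of the 5, one of the isolated domains above formed the border. How much of these stretches reads can be assigned to was not tested.

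X was set beside the autosomal arms 2L, 3L and 3R, each without the 2 Mb at its centromere end. Males carry a single X, and the sex of the embryos is not given. Whether the number of X copies affected the coverage, scores or widths compared here was not tested. Coverage on X was 16.6% in replicate 2 and 14.1% in replicate 1. In replicate 2 the arms 2L, 3L and 3R were covered to 14.5%, 15.7% and 15.7%, and in replicate 1 to 12.9%, 13.8% and 13.5%. X minus the pooled 3 arms was 0.97 percentage points ± 0.45 (SD, n = 2). This rests on the choice of arms: with 2R added, which was covered to 19.0% and 16.5%, the difference was 0.50 points in replicate 2 and -0.00857 in replicate 1. The median distance between neighbours was 319 bp shorter on X than on the 3 arms in replicate 2 and 64.5 bp longer in replicate 1, so it had no common direction. No p is given for these differences, since the smallest two-sided p that an exact sign-flip test of 2 differences can give is 0.5.

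The scores on X were higher than on each of these arms in both replicates. Their median was 1.99 on X in replicate 2, against 1.83 on 2L, 1.86 on 3L and 1.88 on 3R, and 2.26 on X in replicate 1, against 2.08, 2.17 and 2.22. X minus the pooled 3 arms was 0.12 ± 0.02 (SD, n = 2), and 0.11 ± 0.01 with 2R added. X had a smaller share of the weakest regions and a larger share of the strongest. Scores under 1 made up 23.3% of X regions in replicate 2, against 25.4%, 25.6% and 25.5% on 2L, 3L and 3R. In replicate 1 they made up 20.1%, against 24.9%, 23.7% and 23.3%. A score of 3 or more was reached by 48 of 855 X regions in replicate 2 (5.61%), against 13 of 814 on 2L (1.60%), 14 of 950 on 3L (1.47%) and 20 of 1080 on 3R (1.85%), and 2.25% of the whole list. In replicate 1 it was reached by 184 of 847 X regions (21.7%), against 16.6%, 17.8% and 18.3% on 2L, 3L and 3R, and 18.2% of the whole list. For the replicate set the shares were 9.63% on X and 6.64% of the whole list. X minus the pooled 3 arms was 4.01 percentage points ± 0.07 (SD, n = 2) and 4.03 ± 0.14 with 2R added, in the same direction in both replicates. The small SD holds for points only, and the replicates were not alike in proportion. The cut at 3 took 2.25% of the whole list in replicate 2 but 18.2% in replicate 1.

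Counted the other way, X supplied many of the strongest regions of the genome. Of the 114 regions in replicate 2 that scored 3 or more, 48 (42.1%) lay on this stretch of X, and of the 928 in replicate 1, 184 (19.8%) did. X held 16.9% of all regions in replicate 2 and 16.6% in replicate 1. A fixed number of regions gave the same order: X held 43 of the 100 highest-scoring regions in replicate 2 and 27 in replicate 1, and 125 of the 500 highest in replicate 2 and 106 in replicate 1. The excess on X was thus larger in replicate 2 and larger towards the top of the ranking in both replicates. These counts were chosen after the scores had been seen.

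**Figure D5:**
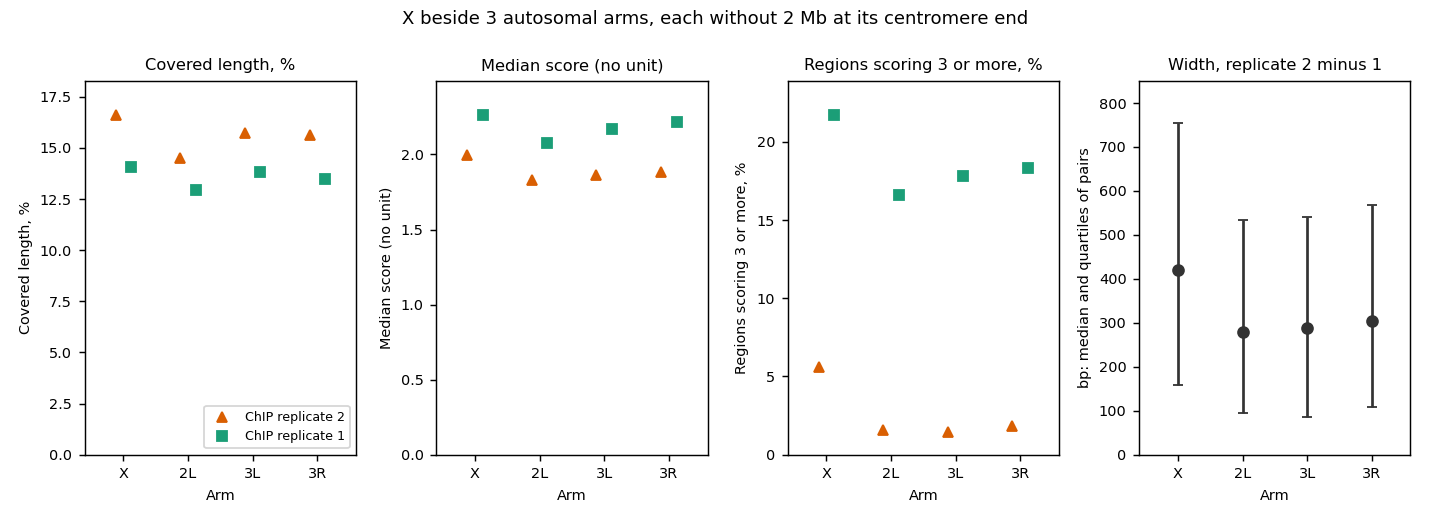
Covered length (%), median score (no unit) and share of regions scoring 3 or more (%) on X and on arms 2L, 3L and 3R in replicate 2 (triangles) and replicate 1 (squares), and the width difference of paired regions (bp, median and quartiles, replicate 2 minus replicate 1). Among the arms shown, X is highest in each panel and, where the replicates are plotted apart, in each replicate. In replicate 2, 5.61% of its regions score 3 or more, against 1.47% to 1.85%. The median widening is 419 bp against 278.5 to 303 bp. Arm 2R is not shown and was covered more than X, to 19.0% in replicate 2 and 16.5% in replicate 1.

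The widening in replicate 2 had a higher median on X than on the other arms. The median widening in replicate 2 was 419 bp for X, against 278.5 bp on 2L, 288 bp on 3L, 303 bp on 3R and 299 bp on 2R. The quartiles of the pairs overlapped between the arms. Score differences had no such order in every class: among pairs with a mean score from 2 to under 3 the median of replicate 2 minus replicate 1 was -0.33 on X, against -0.39 on 2L, -0.42 on 3L and -0.39 on 3R, and at 3 or more it was -0.47 on X, against -0.45, -0.55 and -0.50. Regions of at least 5 kb made up 23.4% of X regions in replicate 2, against 19.2%, 17.9% and 18.7% on 2L, 3L and 3R, and 12.3% in replicate 1, against 10.2%, 10.7% and 11.1%. Median width on X exceeded that of each of these arms in replicate 2 (3268 bp against 3025, 3170 and 3213 bp), but in replicate 1 its 2881 bp lay between 3L with 2819 bp and 3R with 2915.5 bp. Each of these is 1 value per library or pair of libraries, and the differences between arms were not tested.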

How the data were processed

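Chromatin immunoprecipitation with sequencing was analysed from 3 region lists: 1 for each of 2 ChIP samples and 1 for the replicate set. The submitters' processing notes name Bowtie 0.12.7. Coordinates are 1-based on FlyBase release 5, per the file headers. The authors deposited 1 score per region, in no stated unit, which is used for ranks, classes and differences. For the region caller, its threshold and the making of the replicate set, the sources used here give nothing. Per the labels, the input for ChIP replicate 2 was input replicate 1, and that for ChIP replicate 1 was input replicate 2. The gene table at hand is of release 6, so no coordinates were converted and no gene or sequence was taken from it.

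Computed here, with Python 3.11.15, numpy 2.4.6, scipy 1.17.1 and matplotlib 3.10.9, were widths, covered shares, distances between neighbours, runs, region-free stretches, overlaps (at least 50% of a region) and one-to-one pairs, with mean ± SD over the 2 replicate lists. The interval code was tested on simulated lists. No test of ChIP against input was made, since no input list is used here, and differences between arms are given as mean ± SD over the 2 replicates without a p. No region counts as a replicate. The members, the lists and the rules for named regions (the 10 widest, the 10 highest-scoring, the 5 widest in pieces, the 5 most isolated, the 5 largest score differences each way, the 5 runs with most regions, the 5 longest free stretches, the 5 highest-scoring in neither replicate, and the 3 highest and 3 lowest bins) were chosen with earlier results of these data known. Ties among runs of equal size went to the one nearest to the telomere end. Alternatives are given in the closing section.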

Additional observations from a re-analysis of the deposited data

How the results depend on the processing

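Among 97 values under alternatives, 62 moved by less than 1 SD of the replicates, were within 1.5 times for counts, or within the 95% interval for shares and correlations. No paired analysis was possible because the input samples, which share replicate numbers with the ChIP samples, have no list of their own here. All 24 values that leave out a replicate are among the 62 by construction. Leaving out 1 of 2 replicates tests little, since each value then lies within 1 SD of the mean. For the share on X of regions scoring 3 or more, whose mean is 30.97% ± 15.8 (SD, n = 2), it gave 19.8% to 42.1%, so replicate 2 decides its size; the 100 and the 500 highest gave 35.0% and 23.1%. This alternative and the addition of 2R were chosen after seeing the data.

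Restricting each list to its higher-scoring 50% changed most values by construction. In the replicate set it left 461 regions, 10.7% coverage, a median width of 4125 bp, a median score of 2.66, a median distance of 10114 bp, 35.0% of distances under 5 kb, 55.3% of the stretch in free stretches over 100 kb, and 85.0% of regions covered by both replicates. The replicate means became 451.5 regions, 10.05%, 3995.5 bp, 2.70, 11164 bp, 33.0% and 55.9%. The paired score difference became -0.38 and the Spearman correlation of paired scores 0.47, over a narrower range. X minus the 3 arms became 242.75 bp in median width, 0.071 in median score and -1567 bp in median distance.

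The whole assembled X had 28.9% of its length in free stretches over 100 kb in the replicate set and 30.3% in the replicate mean, and whole arms gave a coverage difference of 0.51 points. Adding 2R gave 0.25 points. The list for the replicate set gave X minus the 3 arms as 187 bp and 0.15 in score. Merging neighbours under 500 bp apart gave median distances of 8147 and 8215 bp and 35.7% and 36.0% of distances under 5 kb (replicate set, replicate mean). With 80% of a region required, both replicates covered 76.7%. Bins of 2 Mb ran from 12.2% to 18.0%. Runs held 40.6% of regions at 2 kb and 81.2% at 10 kb. Depth is unknown, so a region missing from a list may be below what the reads could show.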

Other observations

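All starts and ends of the 5314 regions in the list for the replicate set were even numbers, whereas 50.7% of the starts in replicate 2 and 49.4% in replicate 1 were. The 19 X regions of the replicate set narrower than 1311 bp, the narrowest region of either replicate list on X, included 8 that touched neither replicate list and 0 that both covered by at least 50%.

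The last assembled 2 Mb of X, left out above, held 39 regions in replicate 2, which covered 6.71% of it, and 42 in replicate 1, which covered 6.15%.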
